A study of Mus musculus with 21 samples.

Results

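The genes described here are 46 members of the NF-kB pathway and of innate sensing, read as rows of the count table of a mouse Paneth cell series. They were chosen as a list with earlier results of these data known. Shares set beside those of all genes therefore describe the list and do not test it. The list held 5 NF-kB subunits, 8 inhibitors and feedback genes, 4 TNF receptor adaptors and survival genes, 10 chemokines, cytokines and adhesion genes, 2 effector targets, 10 sensors and 7 sensor adaptors and kinases. A member was kept when it had at least 10 counts in at least 3 libraries, which left 38 of the 46 among 55414 genes in the table. All 38 were also among the 13070 genes tested for differences between groups.

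NF-kB is a family of transcription factors that inhibitor proteins of the IkB class hold in the cytosol. Toll-like receptors, NOD receptors and the TNF receptor signal through adaptors and kinases to an IkB kinase, which marks the inhibitor for degradation and lets the factor enter the nucleus. Its targets include cytokines, chemokines and its own inhibitors, among them Nfkbia and Tnfaip3, so that a signal ends itself. Paneth cells lie at the base of small intestinal crypts, secrete antimicrobial proteins and store zinc in their granules.

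Paneth cells were purified by FACS from the small intestine of C57BL/6J mice, and each group had libraries from separate animals. Mice drank Milli-Q water or water with ZnSO4, given in the labels as 200 mM, for 7 weeks. They were SPF mice (3 libraries on each water), SPF mice whose microbiome was depleted with broad-spectrum antibiotics over the final 3 weeks (4 on each water), or germ-free mice (3 on Milli-Q water and 4 on zinc). The comparisons addressed are therefore zinc against Milli-Q water in each microbiome context, and antibiotics or germ-free housing against SPF on the same water. Every group thus shared the sorting method and the water period, and by the labels differed in zinc, antibiotics and housing. The ages of the mice are not given here.

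The 21 libraries held 9888174 to 16896714 counts, with a median of 12936001. The 10 Paneth cell markers, Lyz1 and Defa24 among them, took between 30.8% and 54.4% of the counts of a library. Of 18 immune cell markers, Csf1r and S100a8 were among those with no count in any library and 12 had at most 5 counts in every library, whereas Lyz2 had 59 to 203. There were 3 libraries that stood apart. SPF zinc replicate 1 had 6228 Xist counts, where all others had 34 or fewer, and the labels give no sex. SPF Milli-Q replicate 2 had 141 counts of the macrophage gene C1qa against at most 27 elsewhere. Among other immune markers, C1qb had at most 1 count in any library, Adgre1 at most 2 and Csf1r 0, while Itgam and Ptprc reached 31. The 18 immune markers summed to 14.5 CPM in SPF Milli-Q replicate 2, within the 4.58 to 20.3 CPM of all libraries. Germ-free zinc replicate 4 had 2082 CPM of enterocyte markers against 515 to 1062 in the other germ-free zinc libraries, and lay at -15.8 on the first principal component where those lay at 33.1 to 79.4. For some of the results that rest on these libraries, values without them are given as well. Scaling mattered in germ-free mice, since replacing TMM factors by library totals moved the median change over all genes from -0.03 to -0.99 (log2) for germ-free against SPF mice on Milli-Q water. The same change gave medians of -0.23, -0.15 and 0.12 for zinc in SPF, antibiotics-treated and germ-free mice. In bulk samples, fewer cells of a type and less RNA per cell cannot be told apart. Mt1 and Mt2, the zinc-binding metallothioneins, rose on zinc in all 3 contexts (log2 fold changes of 2.97 to 5.87), and Reg3b and Reg3g, lectins induced by microbes, were lower after antibiotics and in germ-free mice on either water (log2 fold changes of -5.29 to -1.34).

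Levels were compared between members per transcript length, as TPM over protein-coding genes. Nfkbia, which encodes the inhibitor IkB alpha, had the highest level with a mean of 23.0 TPM over the 21 libraries, followed by Irak1, a kinase that relays Toll-like receptor signals, at 15.1 TPM. Among subunits, Rela (7.76 TPM) and Nfkb1 (7.59 TPM) were highest and Rel lowest (0.24 TPM). These means of Rela and Nfkb1 lie within each other's range over libraries, which was 3.71 to 14.1 TPM for Rela and 2.44 to 13.2 TPM for Nfkb1. The leading members of the other roles were Ccl28, a mucosal chemokine, at 6.37 TPM, Sod2, the mitochondrial superoxide dismutase, at 5.51 TPM, Bcl2l1, an anti-apoptotic gene, at 3.86 TPM, and Ly96, the partner of Tlr4, at 2.96 TPM. Sensors of bacterial products were below these leading members, with 2.48 TPM for Cd14, 1.58 for Nod1, 0.94 for Tlr5, 0.47 for Tlr1, 0.38 for Tlr2 and 0.26 for Nod2.

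**Figure D1:**
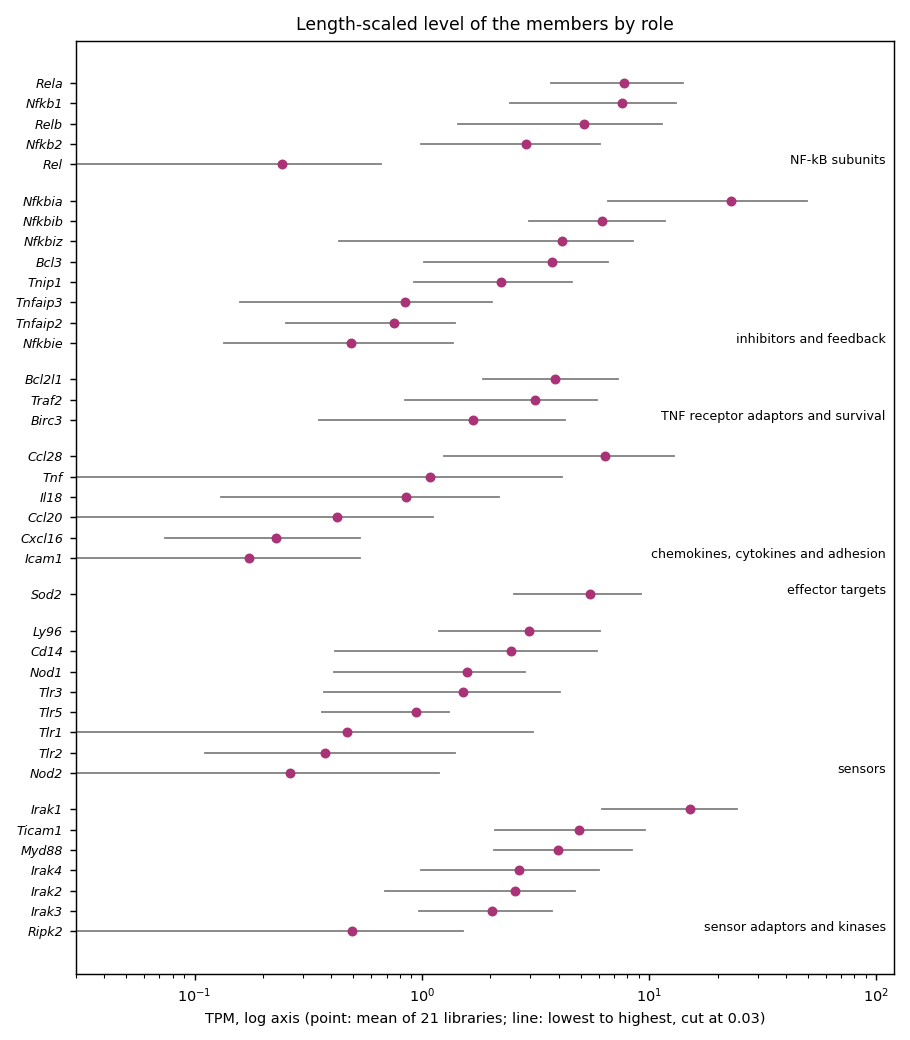
Mean TPM of the 38 kept members over the 21 libraries (points) with the lowest and highest library (lines, left end drawn at 0.03), on a log axis and grouped by role. Nfkbia (23.0 TPM) and Irak1 (15.1 TPM) lie highest, while Icam1, Cxcl16, Rel and Nod2 have means under 0.3 TPM.

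The 8 members below the count minimum were the chemokines Cxcl1, Cxcl2 and Cxcl5, the cytokine Il1b, the adaptor Traf1, the iron-sequestering protein gene Lcn2, and the sensors Tlr4 and Tlr9. Cxcl2 and Cxcl5 had no count in any library, and Il1b had 2 counts, both in SPF zinc replicate 1. Lcn2 had at most 6 counts in a library and 32 in all. Tlr4, the receptor for lipopolysaccharide, had 35 of its 51 counts in SPF Milli-Q replicate 2, where the next library had 4, and Traf1 had 28 of 59 counts there. That library also held the high C1qa count, and the part of macrophage RNA in these values was not tested.

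The κB consensus, the 10-base site that NF-kB dimers bind, was searched on both strands of the 250 bases before the start of each member's canonical transcript (GRCm39). It was present in 1659 of 21757 protein-coding promoters (7.63%) and in 13 of 46 members (28.3%). Among the 16 members that fell on zinc after antibiotics, 6 had it (37.5%), against 3 of the other 22 tested members (13.6%) and 4 of the 8 that were not tested. These shares are a description of letters, and a window without a match says nothing of binding elsewhere. The 5 stretches below come from members of the first group with no annotated exon in the stretch, and are shown because they hold the site. The other members of that group without a match in the window number 10, with Tnf and Cd14 among them. Each is written 5′ to 3′ on the gene's strand, with the matching bases in capitals; in Tlr2 overlapping matches give 11 capitals. They lie at chr1:83094377-83094446 (Ccl20, plus strand), chr9:20926422-20926468 (Icam1, plus), chr12:55539433-55539491 (Nfkbia, minus), chr7:19363426-19363490 (Relb, minus) and chr3:83749075-83749118 (Tlr2, minus).
Ccl20: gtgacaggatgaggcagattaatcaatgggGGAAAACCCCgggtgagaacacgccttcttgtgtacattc
Icam1: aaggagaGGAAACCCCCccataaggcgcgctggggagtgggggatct
Nfkbia: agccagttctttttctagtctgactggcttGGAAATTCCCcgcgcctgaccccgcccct
Relb: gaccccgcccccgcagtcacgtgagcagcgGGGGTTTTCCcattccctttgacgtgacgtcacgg
Tlr2: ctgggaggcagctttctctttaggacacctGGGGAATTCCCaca

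No member rose past the threshold on zinc in any context. After antibiotics 16 of 38 members fell at an adjusted p under 0.05 in edgeR's quasi-likelihood test, while 21.7% of all genes tested changed and 11.5% fell. In SPF mice 2 members fell (0.138% of all genes changed and 0.0765% fell), and in germ-free mice 2 fell (11.4% changed and 5.47% fell). Leaving out 1 library moved the germ-free count to 0 (replicate 2 or 3 on Milli-Q water, or replicate 1, 2 or 3 on zinc) or to 5 (replicate 4 on zinc). The median log2 fold change of the 38 members was -0.54 with antibiotics, -0.19 in SPF and -0.17 in germ-free mice, beside medians over all genes of 0.01, -0.02 and -0.02. Averaged over contexts, 14 members fell (21.9% of all genes changed, 11.2% fell), and the median of the members was -0.27. The number of members with a negative fold change was 29 of 38 under antibiotics, 29 of 38 in SPF and 20 of 38 in germ-free mice, when 49.3%, 54.2% and 51.7% of all genes had one. The germ-free share was thus near that of all genes, and there the medians of sensors (0.07) and of chemokines, cytokines and adhesion genes (0.22) were above 0. Markers of other cells also differed between waters. Enterocyte markers, Fabp1 and Apoa1 among them, summed to 424 to 649 CPM in SPF Milli-Q and 992 to 1790 CPM in SPF zinc libraries, and to 348 to 394 against 414 to 593 CPM after antibiotics, without overlap in either context. Enteroendocrine markers summed to 110 to 212 against 74.3 to 108 CPM in SPF mice, and goblet markers to 5240.2 to 6767 on Milli-Q water against 3954 to 5192 CPM on zinc in germ-free mice, again without overlap. The part of these cells in the member values was not tested.

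**Figure D2:**
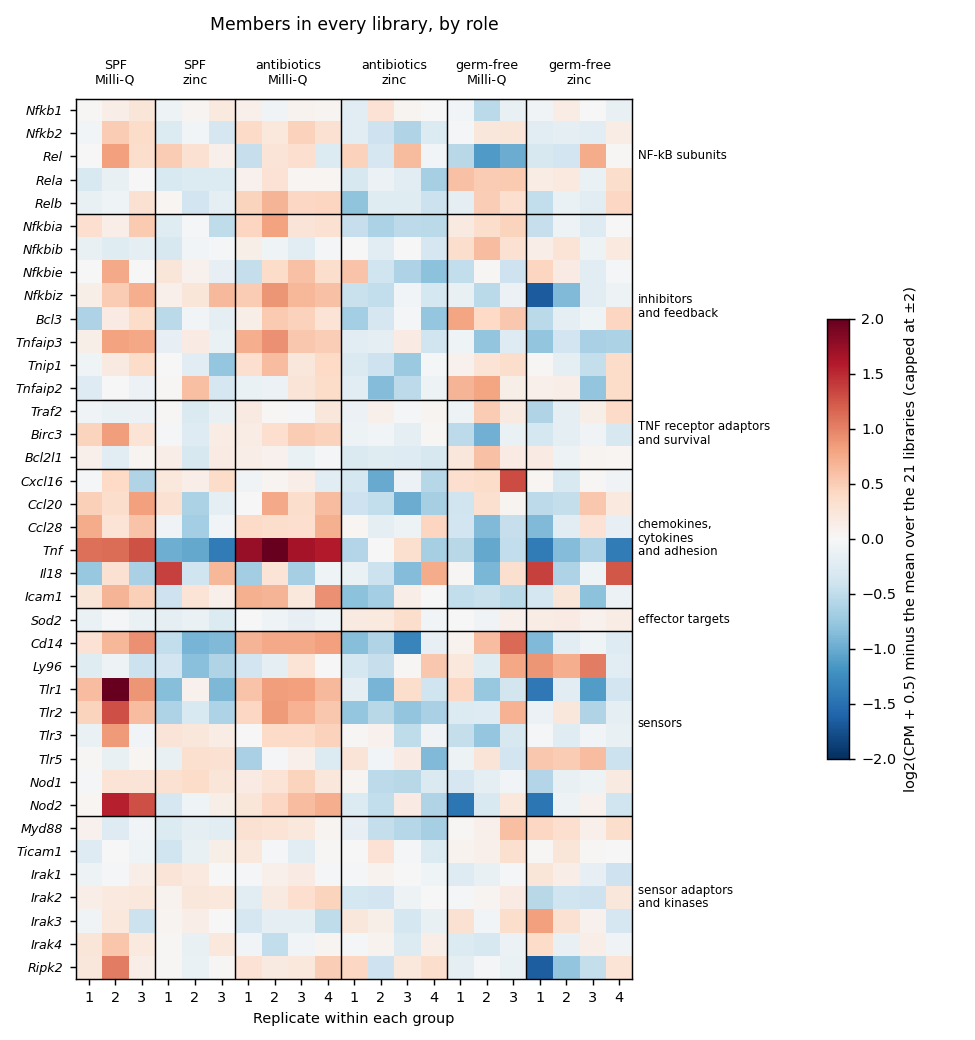
Level of each kept member (rows, by role) in each of the 21 libraries (columns, by group), as log2(CPM + 0.5) minus the member's mean over libraries, with the colour capped at 2 in either direction. Tnf, Cd14 and Tlr2 are high in the Milli-Q libraries of SPF and antibiotics-treated mice and low in their zinc libraries.

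Tnf, the cytokine that is both an inducer and a target of NF-kB (ENSMUSG00000024401, chr17:35418357-35420983, minus strand, GRCm39), fell most. In SPF mice on Milli-Q water it had 34, 46 and 55 counts, against 2, 2 and 0 on zinc. After antibiotics it had 78, 82, 76 and 71 counts on Milli-Q water, against 6, 16, 17 and 5 on zinc. The groups did not overlap in either context. The means of CPM, the count scaled by the TMM-corrected library size, were 2.44 ± 0.19 (SD, n = 3) against 0.10 ± 0.09 (n = 3) in SPF mice and 4.10 ± 0.87 (n = 4) against 0.67 ± 0.39 (n = 4) after antibiotics. The log2 fold changes were -4.48 ± 0.67 (SE, adjusted p = 0.0025) and -2.60 ± 0.43 (adjusted p = 0.0013). As a ratio of summed counts over scaled depth, Tnf was 24.4-fold lower on zinc in SPF mice (exact 95% interval 9.32 to 90.9, counting error only) and 5.99-fold lower after antibiotics (4.36 to 8.41). Leaving out SPF zinc replicate 1 gave -4.91 in SPF mice (adjusted p = 0.0134), and leaving out SPF Milli-Q replicate 2 gave -4.51 (adjusted p = 0.00586). In germ-free mice Tnf was near its floor on both waters, with 3, 1 and 4 counts on Milli-Q water and 0, 2, 3 and 0 on zinc, a ratio of 2.16 (0.624 to 8.40). Markers of immune cells summed to 7.16 to 14.5 CPM in SPF Milli-Q and 7.40 to 11.5 in SPF zinc libraries, and to 6.66 to 15.2 against 4.58 to 10.3 CPM after antibiotics, with overlapping ranges, and their part in the Tnf values was not tested.

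Among the other chemokines and adhesion genes, Ccl20 and Icam1 had low counts. Ccl20, a chemokine for lymphocytes and dendritic cells, had 10, 18, 16 and 21 counts after antibiotics on Milli-Q water and 4, 4, 0 and 2 on zinc, a log2 fold change of -2.45 ± 0.62 (SE, n = 4 and 4, adjusted p = 0.0088). Icam1, an adhesion molecule for leukocytes, had 19, 14, 11 and 24 counts against 0, 1, 7 and 6 there, with -1.98 ± 0.65 (adjusted p = 0.033). Neither gene's groups overlapped in that context. The Icam1 call was lost without 1 of 5 libraries, antibiotics Milli-Q replicates 1, 2 and 4 and antibiotics zinc replicates 1 and 2 (adjusted p 0.0586 to 0.0938). Averaged over contexts, Ccl20 fell by 1.22 on the log2 scale (SE 0.38, adjusted p = 0.027), a call lost without SPF Milli-Q replicate 3, SPF zinc replicate 2 or 3, or replicate 2 or 3 of germ-free mice on Milli-Q water (adjusted p 0.0503 to 0.0752).

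Ccl28, Cxcl16 and Il18, named whatever their values, were not called for zinc. Ccl28 had 34.1, 24.5 and 30.03 CPM in Milli-Q libraries of SPF mice and 19.2, 12.4 and 19.4 on zinc, which did not overlap. After antibiotics it had 26.4, 25.8, 25.6 and 33.4 against 20.6, 17.5, 18.7 and 27.4 CPM, and in germ-free mice 15.3, 10.7 and 14.5 against 10.7, 17.4, 24.8 and 17.9 CPM. The direction of the group means thus differed between contexts, and the averaged log2 fold change was -0.27 ± 0.13 (adjusted p = 0.13). Il18, a cytokine made as an inactive precursor by epithelial cells, had 0.55 to 1.69 CPM in SPF Milli-Q and 0.85 to 4.08 CPM in SPF zinc libraries, and the averaged value was 0.86 ± 0.38 (adjusted p = 0.107). Without SPF Milli-Q replicate 2 the averaged Il18 value was 1.10 (adjusted p = 0.0492), and Il18 was also called on average without a filter. Without SPF zinc replicate 1 the averaged Il18 value was 0.66 (adjusted p = 0.248). Cxcl16, a membrane-bound chemokine, had group means of 0.52 to 1.88 CPM and an averaged value of -0.52 ± 0.27 (adjusted p = 0.164).

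Among the 8 sensors tested, 3 fell on zinc after antibiotics, 1 in SPF mice and 1 in germ-free mice. Of all genes 11.5%, 0.0765% and 5.47% fell there. Cd14, the co-receptor that hands lipopolysaccharide to Tlr4, was called lower on zinc in all 3 contexts. It had 4.16, 5.51 and 6.62 CPM in Milli-Q libraries of SPF mice and 2.20, 1.49 and 1.56 on zinc. After antibiotics it had 5.56, 5.90, 5.91 and 6.18 against 1.61, 2.01, 1.01 and 2.87 CPM. In germ-free mice it had 3.50, 5.33 and 7.82 against 1.55, 2.73, 3.07 and 2.66 CPM. Every Milli-Q library was above every zinc library within each context. The log2 fold changes were -1.64 ± 0.33 (adjusted p = 0.044), -1.64 ± 0.28 (adjusted p = 0.0013) and -1.13 ± 0.32 (adjusted p = 0.029), and the average was -1.47 ± 0.18 (adjusted p = 3.7e-05). Within single contexts the call depended on the number of libraries. It was lost in SPF mice without SPF Milli-Q replicate 2 or 3 or any of the 3 SPF zinc libraries (log2 fold changes -1.83 to -1.45, adjusted p 0.1 to 0.334), and in germ-free mice without replicate 2 or 3 on Milli-Q water or replicate 1, 2 or 3 on zinc (adjusted p 0.0591 to 0.173). The SPF call was also lost with the stricter filter (10 counts in 10 libraries) and the SPF and germ-free calls with only the groups compared, the germ-free call with library totals too. After antibiotics and for the average it passed in every fit that left out 1 library.

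Tlr2, which senses bacterial lipoproteins (ENSMUSG00000027995, chr3:83743576-83749074, minus strand), had 2.20, 3.15, 2.78 and 2.43 CPM after antibiotics on Milli-Q water and 0.68, 0.88, 0.67 and 0.78 CPM on zinc. In SPF mice the values were 2.25, 4.44 and 2.61 against 0.82, 1.14 and 0.82 CPM, and in germ-free mice 1.17, 1.18 and 2.78 against 1.36, 1.86, 0.83 and 1.28 CPM. Milli-Q and zinc libraries were apart in the first 2 contexts and overlapped in germ-free mice. The log2 fold change was -1.79 ± 0.34 after antibiotics (adjusted p = 0.002) and -1.31 ± 0.22 on average (adjusted p = 0.00094). In SPF mice the value of -1.74 ± 0.39 was not called in the edgeR fit (adjusted p = 0.087), but was called with DESeq2 or without a filter. Without SPF Milli-Q replicate 2, the library with 4.44 CPM and the high C1qa count, it was -1.38 (adjusted p = 0.424). Without SPF zinc replicate 1 it was -1.66 (adjusted p = 0.528). Tlr1, which pairs with Tlr2, had 1.57, 5.82 and 1.98 CPM in Milli-Q libraries of SPF mice, the 5.82 in the library with the high C1qa count, and 0.25, 0.93 and 0.22 CPM on zinc. After antibiotics it had 1.502, 1.90, 1.87 and 1.61 against 0.68, 0.21, 1.21 and 0.52 CPM, and in germ-free mice 1.30, 0.30 and 0.54 against 0, 0.66, 0.12 and 0.53 CPM. In the edgeR fit its zinc effect passed for the average alone, with -1.69 ± 0.40 (adjusted p = 0.0063), and leaving out any 1 library kept that call with values of -2.02 to -1.42. Without antibiotics zinc replicate 3, Tlr1 was also called after antibiotics (-1.87, adjusted p = 0.038). It was called in SPF mice with DESeq2 or without a filter (adjusted p 0.000277 to 0.778 over all alternatives), and after antibiotics with these or with only the groups compared (0.0209 to 0.182). Leaving out SPF Milli-Q replicate 2 moved the SPF value of Tlr1 from -2.71 to -1.90 (adjusted p = 0.778).

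Nod1, a sensor of peptidoglycan fragments in the cytosol, had 8.41, 9.18, 10.4 and 8.86 CPM after antibiotics on Milli-Q water and 7.80, 5.04, 4.92 and 6.01 on zinc, with -0.63 ± 0.17 (adjusted p = 0.013). Leaving out antibiotics Milli-Q replicate 3 ended this call (-0.56, adjusted p = 0.0512). Nod2, its relative that Paneth cells are known to express, had 0.89, 3.47 and 2.80 CPM in Milli-Q libraries of SPF mice and 0.57, 0.78 and 0.97 CPM on zinc. After antibiotics it had 1.10, 1.31, 1.58 and 1.75 against 0.62, 0.46, 1.01 and 0.39 CPM, without overlap. The averaged value of -0.92 ± 0.37 missed the threshold (adjusted p = 0.0775). Nod2 passed without SPF Milli-Q replicate 1 (-1.04, adjusted p = 0.044) or germ-free Milli-Q replicate 1 (-1.11, adjusted p = 0.0227), and with DESeq2. Without SPF Milli-Q replicate 2, the library with 3.47 CPM and the high C1qa count, the averaged Nod2 value was -0.80 (adjusted p = 0.135). Tlr5, the flagellin receptor, had group means of 4.12 to 6.28 CPM and an averaged value of 0.27 ± 0.17 (adjusted p = 0.26).

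**Figure D3:**
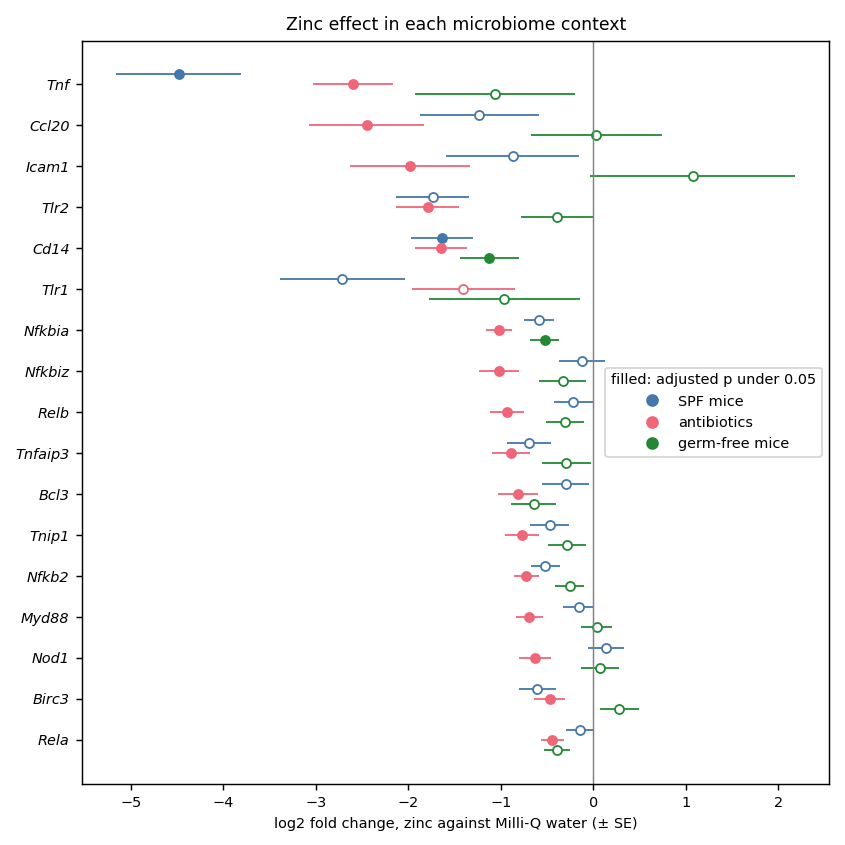
Log2 fold change of zinc against Milli-Q water (horizontal axis, ± SE) in SPF, antibiotics-treated and germ-free mice for the 17 members called in at least 1 zinc comparison, with filled points for an adjusted p under 0.05. After antibiotics 16 of the 17 are filled, and Tnf in SPF mice lies farthest to the left at -4.48.

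Among the 7 sensor adaptors and kinases, Myd88, the adaptor of most Toll-like receptors, fell on zinc after antibiotics, where 11.5% of all genes fell. It had 16.1, 15.8, 15.2 and 13.5 CPM on Milli-Q water and 11.6, 9.21, 8.62 and 8.03 on zinc, with -0.69 ± 0.15 (adjusted p = 0.0033). In SPF mice it had 13.8, 10.8 and 12.4 against 10.7, 11.2 and 11.2 CPM, and in germ-free mice 13.2, 13.9 and 19.9 against 17.4, 16.5, 13.9 and 16.8 CPM, with overlap in both. The average was -0.27 ± 0.09 (adjusted p = 0.038) and was lost in 14 of 21 fits that left out 1 library (adjusted p 0.0505 to 0.122). The fits that kept it were those without replicate 2 of SPF Milli-Q, replicate 4 of antibiotics Milli-Q, replicate 1 of antibiotics zinc, replicates 1 and 2 of the germ-free Milli-Q group and replicates 1 and 4 of the germ-free zinc group. Ripk2, the kinase that NOD receptors use, had group means of 1.04 to 2.62 CPM and an averaged value of -0.43 ± 0.24 (adjusted p = 0.20), which passed without germ-free zinc replicate 4 (-0.63, adjusted p = 0.0404). Without SPF Milli-Q replicate 2, where Ripk2 was highest at 3.93 CPM, the averaged value was -0.29 (adjusted p = 0.422). Irak1 had group means of 57.9 to 71.5 CPM and was not called in any zinc comparison, nor were Irak2, Irak3, Irak4 and Ticam1.

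Of the 5 NF-kB subunits, Rela, Relb and Nfkb2 fell on zinc after antibiotics and on average, where 11.5% and 11.2% of all genes fell. Nfkb1 and Rel did not pass in any zinc comparison. Relb and Nfkb2, which form the dimer of the non-canonical pathway, had 22.1, 25.9, 21.6 and 21.8 CPM against 8.98, 13.5, 13.5 and 11.8 CPM, and 24.2, 21.5, 25.6 and 22.9 against 15.9, 13.8, 12.1 and 15.3 CPM after antibiotics. Neither gene's groups overlapped. Their log2 fold changes were -0.93 ± 0.18 (adjusted p = 0.0023) and -0.72 ± 0.14 (adjusted p = 0.002). Rela, the main transactivating subunit, had 23.7, 27.3, 23.0 and 23.0 against 17.8, 20.5, 19.1 and 13.9 CPM, with -0.44 ± 0.13 (adjusted p = 0.017). Leaving out replicate 2 on Milli-Q water or replicate 4 on zinc ended that call (adjusted p of 0.0657 and 0.0643). In germ-free mice Rela had 33.7, 32.0 and 32.3 against 24.8, 25.7, 20.4 and 28.5 CPM, and was called only without germ-free zinc replicate 4 (-0.47, adjusted p = 0.02). Nfkb1, which encodes p105 and p50, had group means of 28.7 to 37.3 CPM and an averaged value of 0.05 ± 0.08 (adjusted p = 0.70).

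Of the 8 inhibitors and feedback genes, 5 fell on zinc after antibiotics, where 11.5% of all genes fell. The other 3 did not pass, with log2 fold changes of -0.089 for Nfkbib, -0.64 for Nfkbie and -0.61 for Tnfaip2. Nfkbia (ENSMUSG00000021025, chr12:55535332-55539432, minus strand), itself an NF-kB target, had 44.6, 58.4, 39.9 and 40.8 CPM on Milli-Q water and 23.97, 21.1, 22.8 and 22.7 on zinc there. In SPF mice it had 41.8, 36.2 and 47.6 against 27.8, 32.6 and 23.1 CPM, and in germ-free mice 37.4, 42.5 and 45.2 against 23.8, 30.9, 27.5 and 33.0 CPM. Every Milli-Q library lay above every zinc library of its context. The log2 fold changes were -1.02 ± 0.14 (adjusted p = 0.0005) after antibiotics, -0.53 ± 0.15 (adjusted p = 0.030) in germ-free mice and -0.71 ± 0.09 on average (adjusted p = 3.7e-05). The value in SPF mice, -0.59 ± 0.17, was not called, except in the edgeR fit without a filter (adjusted p = 0.0391). The germ-free call ended without replicate 2 or 3 on Milli-Q water or replicate 1, 2 or 3 on zinc (adjusted p 0.0547 to 0.139), and with library totals or only the groups compared.

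Tnfaip3, which encodes the ubiquitin-editing enzyme A20, had 8.11, 9.31, 7.11 and 6.86 CPM after antibiotics on Milli-Q water and 4.03, 4.06, 5.32 and 3.46 on zinc, with -0.89 ± 0.21 (adjusted p = 0.0053). In SPF mice it had 5.18, 8.58 and 8.46 against 4.16, 5.33 and 4.24 CPM, which overlapped, and in germ-free mice 4.41, 2.52 and 3.86 against 2.52, 3.50, 2.83 and 2.87 CPM. Its partner Tnip1 fell by 0.77 on the log2 scale after antibiotics, the atypical nuclear IkB proteins Nfkbiz and Bcl3 by 1.02 and 0.82 (adjusted p 0.0034 to 0.012 for the 3 genes). None of Nfkbib, Nfkbie and Tnfaip2 was called in SPF or germ-free mice either. Bcl3 was also called in germ-free mice once germ-free zinc replicate 4 was left out (-0.86, adjusted p = 0.0123). The other groups of genes held few calls. Birc3, an inhibitor of apoptosis, fell after antibiotics by 0.47 on the log2 scale (SE 0.17, adjusted p = 0.048), from 9.62 to 12.4 CPM on Milli-Q water to 7.48 to 8.75 on zinc, and lost the call in 7 of 8 fits that left out 1 library (adjusted p 0.066 to 0.127). Only the fit without antibiotics Milli-Q replicate 1 kept it. Bcl2l1 and Sod2 were not called for zinc, with group means of 10.8 to 16.9 CPM and 28.2 to 36.5 CPM.

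**Figure D4:**
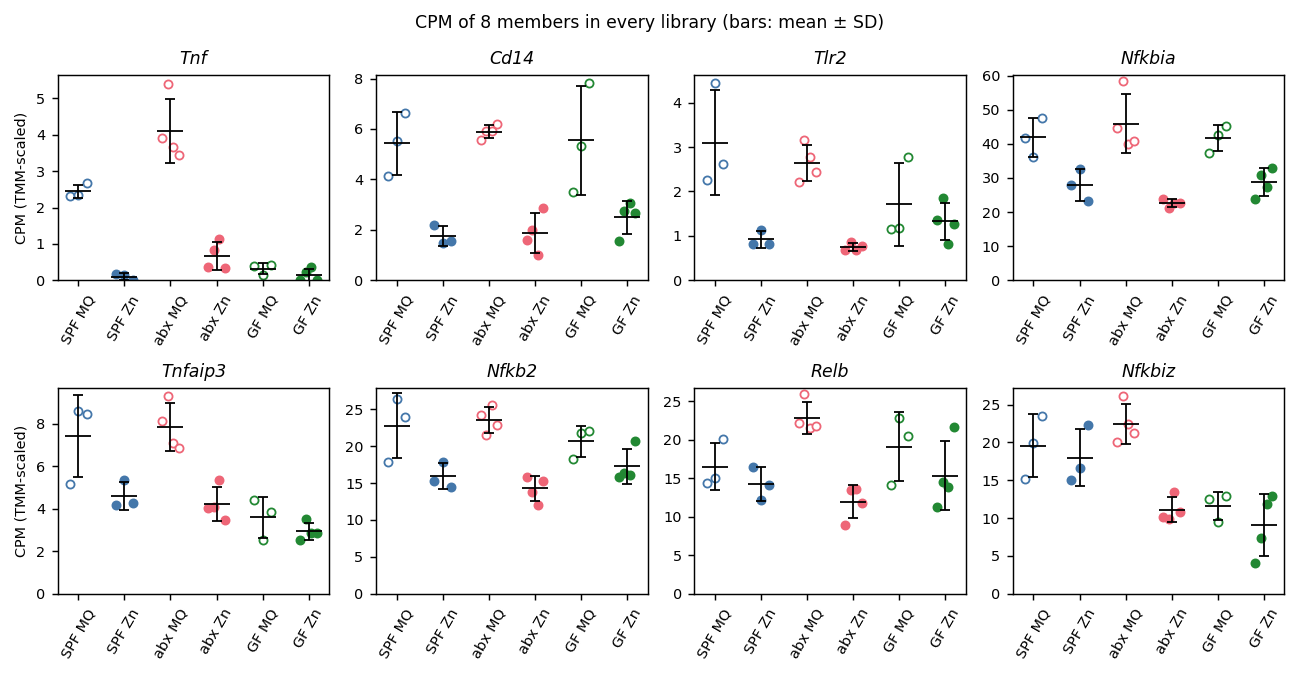
CPM of 8 members in each of the 21 libraries (points) by group, with bars for the mean ± SD of 3 or 4 libraries and every vertical axis starting at 0. Cd14 and Nfkbia in the zinc libraries lie below all Milli-Q libraries of the same context, while Tnf is near 0 in germ-free mice on either water.

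Whether zinc acted differently between contexts was tested as a difference of the zinc effects. No member passed in any of the 3 such tests with edgeR's quasi-likelihood test, where the share of all genes called was 0% (antibiotics against SPF), 0% (germ-free against SPF) and 0.207% (germ-free against antibiotics). Without germ-free zinc replicate 4, 1 member passed for germ-free against SPF. At an unadjusted p under 0.05 there were 6, 7 and 11 members, and DESeq2 called 0, 0 and 1. The share of all genes at that unadjusted threshold was not counted, so no excess of members can be read from these numbers. The median over members of the difference was -0.20 for antibiotics minus SPF, 0.22 for germ-free minus SPF and 0.48 for germ-free minus antibiotics, beside 0.01, 0.00 and 0.01 over all genes. The larger number of members called after antibiotics, with 4 libraries a group, is therefore not shown to be a larger effect on any member. The 3 zinc comparisons use separate libraries but come from 1 fit with a shared estimate of the spread. Both members called in SPF mice, Tnf and Cd14, and both called in germ-free mice, Cd14 and Nfkbia, were among the 16 called after antibiotics. How often genes outside the list were called in more than 1 context was not counted.

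Antibiotics on Milli-Q water changed no member at an adjusted p under 0.05 with edgeR's quasi-likelihood test, when 0.199% of all genes changed. At an unadjusted p under 0.05 there were 2 members, Irak4 and Relb, and DESeq2 called 0. The share of all genes at that unadjusted threshold was not counted. Tnf had 2.32, 2.35 and 2.66 CPM in SPF mice and 3.91, 5.38, 3.65 and 3.45 after antibiotics, with no overlap and no call. The median of the 38 members was 0.05, against -0.01 over all genes.

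On Milli-Q water, 12 members were called between germ-free and SPF mice, with 10 lower and 2 higher, while 24.2% of all genes changed (11.6% lower, 12.7% higher). Paneth markers took 51.7% to 53.5% of counts in germ-free and 34.6% to 43.6% in SPF libraries, enteroendocrine markers summed to 59.9 to 85.4 against 110 to 212 CPM, and tuft markers to 128 to 146 against 189.7 to 245 CPM. Their part in the member values was not tested. Tnf fell by 2.85 on the log2 scale (SE 0.61, adjusted p = 0.002), and its summed counts were 7.31-fold lower over scaled depth (3.61 to 17.3). Sensors that were lower were Tlr1 (-2.12 ± 0.68, adjusted p = 0.027), Nod2 (-2.05 ± 0.68, adjusted p = 0.030) and Tlr3, a receptor for double-stranded RNA (-0.88 ± 0.26, adjusted p = 0.017). Nod2 had 0, 0.59 and 1.07 CPM in germ-free mice against 0.89, 3.47 and 2.80 in SPF mice, which overlapped. Tlr3 had 4.28, 3.40 and 4.82 against 5.59, 11.6 and 5.90 CPM, and Rel, the c-Rel subunit, 0.91, 0.44 and 0.54 against 1.57, 3.17 and 2.13 CPM (-1.85 ± 0.51, adjusted p = 0.011), each without overlap. Many of these were highest in SPF Milli-Q replicate 2, the library with the high C1qa count. Without it 7 members were called, and Tlr1 (-1.34, adjusted p = 0.19), Nod2 (-1.73, adjusted p = 0.103), Tlr3 (-0.49, adjusted p = 0.165), Irak4 (-0.51, adjusted p = 0.101) and Nfkbiz (-0.77, adjusted p = 0.0636) were not. Without germ-free Milli-Q replicate 2, 6 were called. Rel was lost (-1.68, adjusted p = 0.0573), and so were Tlr1, Nod2, Tlr3, Irak4 and Nfkbiz (adjusted p 0.0908 to 0.158). In the 6 fits that left out 1 library, Nfkbiz lost its call in 5 and Nod2 in 4. Tlr1 and Irak4 lost theirs in 3, Tlr3 in 2 and Rel in 1.

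Ccl28 had 15.3, 10.7 and 14.5 CPM in germ-free and 34.1, 24.5 and 30.03 in SPF mice on Milli-Q water, with -1.12 ± 0.24 (adjusted p = 0.0017). Birc3 fell by 1.08 (SE 0.21, adjusted p = 0.00083) and Tnfaip3 by 1.04 (SE 0.25, adjusted p = 0.0051) on the log2 scale. Ccl28, Birc3, Tnfaip3 and Tnf kept their calls without any single library. The 2 members that were higher were Rela, with 33.7, 32.0 and 32.3 against 17.9, 20.2 and 22.3 CPM (0.70 ± 0.15, adjusted p = 0.0018), and Nfkbib, which encodes IkB beta, with 16.3, 19.7 and 15.8 against 11.4, 10.6 and 11.2 CPM (0.64 ± 0.16, adjusted p = 0.0051). Their direction depended on the scaling, since with library totals alone the fold changes were -0.27 for Rela and -0.32 for Nfkbib when the median of all genes was -0.99. Relative to that median both remained above it.

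**Figure D5:**
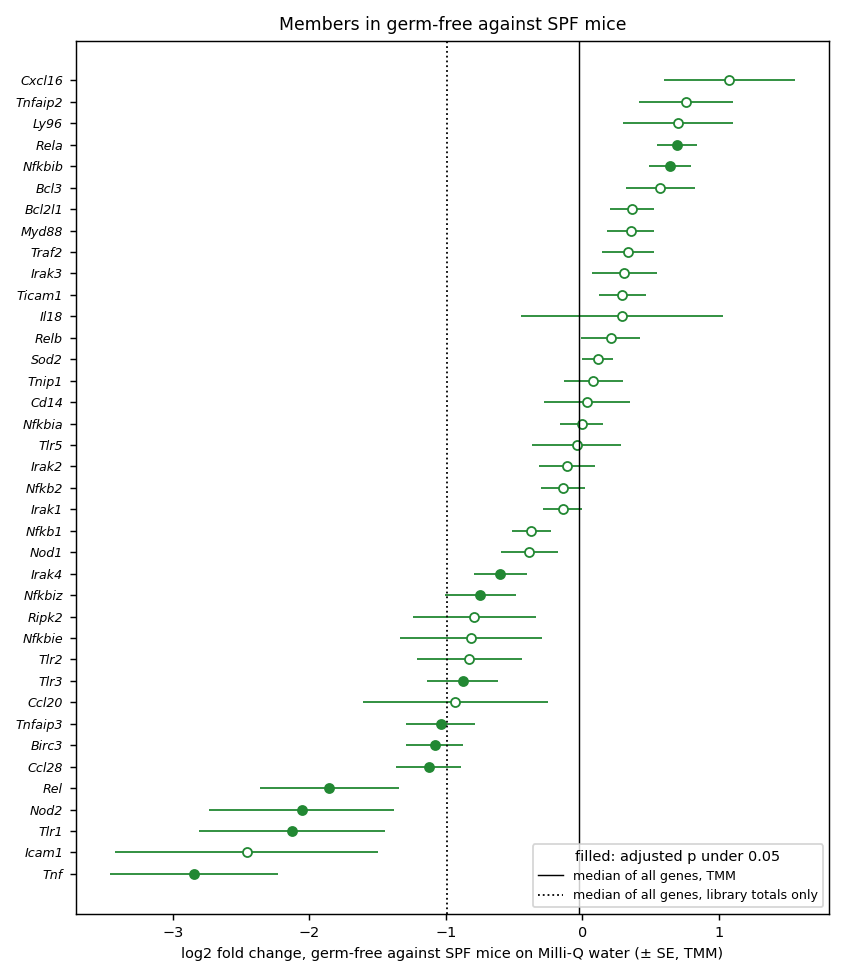
Log2 fold change of germ-free against SPF mice on Milli-Q water (horizontal axis, ± SE, TMM scaling) for the 38 kept members, with filled points for an adjusted p under 0.05. The solid line is the median of all genes (-0.03) and the dotted line the same median with library totals alone (-0.99), with Rela and Nfkbib to the right of both and Tnf farthest to the left.

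On zinc water, antibiotics against SPF changed 3 members (8.97% of all genes changed, 4.76% higher and 4.21% lower). Tnf was higher (2.62 ± 0.72, adjusted p = 0.027), Sod2 higher (0.37 ± 0.11, adjusted p = 0.034) and Nod1 lower (-0.66 ± 0.19, adjusted p = 0.032). All 3 calls were lost without SPF zinc replicate 1 (adjusted p of 0.0526, 0.0827 and 0.0788), and also without SPF zinc replicate 2 or 3 or antibiotics zinc replicate 3, each of which left 0 members called. Enterocyte markers summed to 414 to 593 CPM in antibiotics zinc and 992 to 1790 in SPF zinc libraries, and goblet markers to 5086 to 7854 against 2706 to 3306 CPM, without overlap. Germ-free against SPF mice on zinc changed 3 members (5.85% of all genes changed, 3.47% higher and 2.38% lower), with Ly96 (1.56 ± 0.40, adjusted p = 0.024) and Myd88 (0.55 ± 0.16, adjusted p = 0.048) higher and Nfkbiz lower (-0.96 ± 0.24, adjusted p = 0.024). Ly96 had 4.45, 3.94, 4.96 and 1.81 CPM against 1.55, 1.00 and 1.27 in SPF mice. No member was called without SPF zinc replicate 2 or 3 or germ-free zinc replicate 1 or 2, and Myd88 kept its call in 1 of 8 other settings, DESeq2, and turned to -0.07 with library totals alone. Goblet markers summed to 3954 to 5192 CPM in germ-free zinc libraries, above those of SPF zinc libraries, and Paneth markers took 48.5% to 54.4% against 43.3% to 44.7% of counts. The part of these markers in both comparisons was not tested.

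Other genes of the pathway were read from a list of 88, also chosen with earlier results of these data known, of which 61 were tested. On zinc after antibiotics 20 fell and 1 rose, with a median log2 fold change of -0.28, when 21.7% of all genes changed, 11.5% fell and their median was 0.01. The drop was largest for Nos2, the inducible nitric oxide synthase and a known NF-kB target, which fell by 3.40 after antibiotics (SE 0.49, adjusted p = 0.00081), by 3.14 in SPF mice (SE 0.60, adjusted p = 0.028) and by 2.37 in germ-free mice (SE 0.66, adjusted p = 0.027) on the log2 scale. Nos2 was the single gene of the list called in SPF mice. Zc3h12a, an RNase that degrades cytokine transcripts, fell by 1.91 (SE 0.31) and Socs3, a brake on cytokine receptors, by 1.18 (SE 0.29) after antibiotics. Of 20 genes of the kinase complex and relay, 6 fell there, Ikbkb, Sharpin, Rnf31, Rbck1, Map3k14 and Birc2, by 0.42 to 0.74 on the log2 scale, and Ube2n rose by 0.46 (SE 0.14). Sharpin, Rnf31 and Rbck1 encode the subunits of the linear ubiquitin ligase that acts below the TNF receptor. In germ-free mice on zinc 6 of the 61 fell and 2 rose, together a share near the 11.4% of all genes that changed, while 5.47% of all genes fell. The 2 that rose were Traf6 (0.63 ± 0.19) and Xiap (0.62 ± 0.20). Germ-free mice on Milli-Q water had 9 lower and 5 higher than SPF mice, a share near the 24.2% of all genes that changed (11.6% lower, 12.7% higher), with the receptor gene Tnfrsf1a at 0.96 ± 0.15 and Tnfsf10 at -1.12 ± 0.24. Antibiotics on Milli-Q water changed none of the 61 in edgeR's quasi-likelihood test.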

How the data were processed

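Groups were read from the labels and columns of the table were tied to libraries by name, with 0 columns unmatched. The authors deposited raw counts per Ensembl gene, with no normalisation, for 21 libraries made with a stranded mRNA kit. Per the labels, FastQC 0.12.0, STAR 2.7.0a and DESeq2 were used on build mm39. The rule for counting reads (strand, reads shared by genes) was not given in the sources used here. Symbols came from GENCODE M39 (54749 of 55414 identifiers matched, and the others held 0.0164% of counts), promoter sequence from the GRCm39 genome. Counts were tested with edgeR 4.0.16 (R 4.3.3) in a quasi-likelihood fit of all 21 libraries, with 1 coefficient per group, TMM factors and filterByExpr, which kept 13070 genes. In each of 11 comparisons, Benjamini-Hochberg adjustment ran over all genes, and calls were made at 0.05. CPM used TMM-scaled library sizes, and TPM the longest annotated transcript of protein-coding genes without mitochondrial ones. Exact 95% intervals of count ratios cover counting error only. On simulated data, 65.7% of genes changed 2-fold were recovered in a contrast like zinc in SPF mice among 12936 genes. After antibiotics 67.7% were recovered among 12882 genes, and in germ-free mice 62.2% among 12912. Of the calls, 6.37%, 4.32% and 4.38% were false. The same small number of genes was changed in each simulated contrast, with all others equal between groups. In the data 0.138%, 21.7% and 11.4% of genes were called, so the recovered shares do not compare what was detectable between contexts. Named in full were, in each zinc comparison, the average, and antibiotics and germ-free against SPF on Milli-Q water, the up to 4 called members with the largest rise and the up to 4 with the largest fall at a mean of at least 1 CPM. Also named, whatever their values, were Cd14, Tlr4, Tlr5, Nod2, Myd88, Ripk2, Rela, Nfkb1, Nfkbia, Tnfaip3, Lcn2, Cxcl16, Ccl28, Il18 and the most abundant member of each role. Other genes named, such as the remaining called members and Nos2, were chosen after their values were seen. The members and lists were chosen with earlier results of these data known. Alternatives were DESeq2 1.42.0 and its size factors in edgeR, library totals, TMM without Defa genes, no filter or a filter of 10 counts in 10 libraries, a block for the replicate number, a fit of the compared groups alone, and leaving out each library.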

Additional observations from a re-analysis of the deposited data

Results flagged for a closer look

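A single library lay far from the other 3 of its group in 6 of 96 checks over 32 members, and chance flags about 1 in 20 such groups. Ccl28 had 33.4 CPM in antibiotics Milli-Q replicate 4 against 25.6 to 26.4 in the others. Nfkb2 had 20.7 CPM in germ-free zinc replicate 4 against 15.9 to 16.4, and Tlr5 had 3.4 CPM in the same library against 7.0 to 7.55. Rela had 27.3 CPM in antibiotics Milli-Q replicate 2 against 23.0 to 23.7, and Relb had 25.9 CPM there against 21.6 to 22.1. Sod2 had 34.3 CPM in germ-free zinc replicate 3 against 36.0 to 36.2.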

How the results depend on the processing

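With a median of 12936001 counts a library, genes such as Tnf, Ccl20, Icam1 and Nod2 had few counts, so small differences in them were not detectable at this depth. The counts of members below are given without the share of all genes called under the same alternative, so they show only how the member calls moved. The count of members called for zinc after antibiotics was 13 to 18 under all alternatives. For zinc in SPF mice it was 6 without a filter, 0 with the stricter filter, 1 with only the groups compared and 4 with DESeq2. For zinc in germ-free mice it was 0 with library totals and 0 with only the groups compared. Library totals gave 31 members for germ-free against SPF on Milli-Q water, all lower, 11 on zinc water and 1 for antibiotics on zinc water. The median over all genes for germ-free against SPF was then -0.99 on Milli-Q water and -0.61 on zinc water. The 31 and 11 therefore do not set the members apart from other genes. Germ-free against SPF on zinc gave 0 members with only the groups compared and 5 with DESeq2. Each of the 3 differences of the zinc effect gave 1 member without a filter, and DESeq2 gave 1 for germ-free minus antibiotics. Leaving out 1 library gave 1 to 2 members for zinc in SPF mice, 13 to 16 after antibiotics, 0 to 5 in germ-free mice and 12 to 16 on average. It gave 0 to 0 for antibiotics on Milli-Q water, 0 to 2 on zinc water, 6 to 12 for germ-free on Milli-Q water, 0 to 3 on zinc water and 0 to 1 for germ-free minus SPF. Some single values changed direction, none of them called in that direction, and the cause was not tested. With library totals these were Nfkbib (-0.32) and Rela (-0.27) for germ-free against SPF on Milli-Q water, Myd88 (-0.075) on zinc water, Nod1 for zinc in SPF mice (-0.081) and Nfkb1 on average (-0.028). Leaving out 1 library gave ranges across 0 for Nfkbiz in SPF mice (-0.31 to 0.048) and, in germ-free mice on zinc, for Ccl20 (-0.44 to 0.35), Myd88 (-0.076 to 0.25), Nod1 (-0.064 to 0.18) and Tlr2 (-0.61 to 0.18).

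Replicate numbers shared between waters were not taken as pairs, since libraries with the same number had correlations of their deviations from -0.17 to 0.23. Numbers came from the titles, and the germ-free Milli-Q libraries titled 1, 2 and 3 carry 1, 3 and 4 in their descriptions, so their correlations and block values rest on that choice. With the replicate number as a block, the count for zinc in SPF mice was 1 in place of 2, the lost call being Cd14, and the other counts of members stayed within 1.5 times. The block also ended the calls of Birc3 for zinc after antibiotics, Myd88 on average and for germ-free against SPF on zinc, and Tlr1 for germ-free against SPF on Milli-Q water, and turned Ccl20 for zinc in germ-free mice (-0.058).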
